A study of Mus musculus with 24 samples.

Results

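The 7 transcripts described here are in use as markers of blood monocytes. Ly6c2, Ms4a4c, Plac8, Chil3, Vcan, Ccr2 and Itga4 were followed through every library of a bulk RNA-seq series on CD11b-positive cells of the adult mouse brain. They were chosen by name as monocyte markers, with earlier results of these data known. The rule itself held no measured value, but the counts below are not an independent test. All 7 of 7 were found among the 55487 genes of the table and all 7 were among the 17139 genes kept after genes with low counts were removed.

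The study asked how microglia of offspring exposed to maternal immune activation (MIA) respond to a later immune challenge. Male offspring aged 8 to 10 weeks, control or MIA, were injected intraperitoneally with saline or with lipopolysaccharide (LPS, a bacterial cell wall component) at 4500 EU/g, and cells were taken 18 h later. The animals were perfused with PBS, the meninges were removed, and frontal cortex and striatum were dissociated with papain before CD11b-positive cells were pulled out with magnetic beads. CD11b is carried by microglia but also by monocytes, neutrophils and macrophages of the brain borders, so the bead fraction can hold all of these. The 8 groups were control cortex saline, control cortex LPS, control striatum saline, control striatum LPS, MIA cortex saline, MIA cortex LPS, MIA striatum saline and MIA striatum LPS, each with 3 libraries. Replicate 3 of MIA striatum LPS is titled as excluded, was left out of every fit and is shown apart, so that group rests on 2 libraries. The agent given to the dams, the litters and whether replicates are separate animals are not stated in the labels. The p-values therefore measure the spread between these samples, which may be technical, and an MIA difference and a litter difference cannot be told apart.

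Classical monocytes are made in bone marrow, leave it by way of the chemokine receptor CCR2, and are recognised in the mouse by high surface Ly6C, whose transcript in these cells is Ly6c2. They reach inflamed tissue by rolling and sticking to endothelium, where the integrin α4 chain (Itga4) pairs with β1 or β7 and binds VCAM1 or MAdCAM1. Resident microglia arise in the embryo, are self-renewing and carry little of these transcripts, so monocyte markers are widely used to tell blood-derived cells from microglia. In bulk RNA, fewer cells of a type and less RNA per cell cannot be told apart.

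The 23 libraries used held 19453295 to 29480499 counts and a count for 17723 to 20324 genes. Microglial identity genes dominated: P2ry12, the ADP receptor of surveying microglia, lay between 3713 and 5757 CPM (counts scaled to the size of the library) in saline libraries and between 834 and 1463 CPM in LPS libraries. In all, 3 libraries stood apart in gene lists that touch the results. MIA cortex saline replicate 1 had a summed level of 19 neutrophil markers of 1097 CPM, against 575 and 615 CPM in the other MIA cortex saline libraries. MIA cortex LPS replicate 3 had a summed level of 22 type I interferon response genes of 2478 CPM, against 692 and 653 CPM in replicates 1 and 2, and of 15 endothelial markers of 1756 CPM, against 810 and 896 CPM. In the left-out MIA striatum LPS replicate 3, these interferon response genes summed to 1857 CPM and the endothelial markers to 2215 CPM.

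Ly6c2 (ENSMUSG00000022584.14) encodes the GPI-anchored Ly6C2 surface protein. Its coding sequence is nearly the same as that of its neighbour Ly6c1, which brain endothelium expresses, and so the pair is shown first. Both have 396 coding bases and differ at 9 of them (97.7% identity). The first 120 coding bases hold 6 of these differences, in capitals (reference transcripts of GENCODE, 5′ to 3′).
Ly6c2: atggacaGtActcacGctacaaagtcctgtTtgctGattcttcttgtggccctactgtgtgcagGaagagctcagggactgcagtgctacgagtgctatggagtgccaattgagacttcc
Ly6c1: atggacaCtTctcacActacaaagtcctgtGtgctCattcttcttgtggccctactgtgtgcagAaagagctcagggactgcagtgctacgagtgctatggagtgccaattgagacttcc
Of the 2733 windows of 50 bases in Ly6c2 transcripts, 13.9% also occur in Ly6c1. The deposited value of Ly6c2 was not a whole number in 22 of 23 libraries, so some of its reads were divided between genes, and its level is uncertain to that extent.

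Ly6c2 was higher after LPS in both regions of control offspring and in the striatum of MIA offspring. In control cortex it stood at 3.09, 3.20 and 1.73 CPM after saline (replicates 1 to 3) and at 16.0, 37.6 and 48.8 CPM after LPS. In control striatum the saline libraries held 0.773, 0.894 and 0.536 CPM and the LPS libraries 8.28, 17.9 and 42.5 CPM. The groups did not overlap in either region, and replicate 3 was the highest LPS library in both. The log2 fold change was 3.67 ± 0.72 (SE) in control cortex (edgeR adjusted p = 0.00099) and 4.97 ± 0.79 in control striatum (adjusted p = 0.000116), or 12.8-fold and 31.3-fold.

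In MIA striatum, Ly6c2 stood at 0.531, 0.296 and 1.46 CPM after saline and at 6.94 and 8.44 CPM after LPS. These groups did not overlap either, and the log2 fold change was 3.31 ± 0.78 (adjusted p = 0.00801). This call was lost without MIA striatum LPS replicate 2 (adjusted p = 0.0639) and without MIA striatum saline replicate 2 (adjusted p = 0.0528). In MIA cortex the saline libraries held 10.6, 2.63 and 2.08 CPM and the LPS libraries 6.53, 8.92 and 24.3 CPM. Saline replicate 1 lay above 2 of the 3 LPS libraries, and the log2 fold change of 1.39 ± 0.66 (95% interval 0.01 to 2.77) did not pass (adjusted p = 0.208). Without that saline library it was 2.49 ± 0.72 and passed (adjusted p = 0.0324).

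**Figure D1:**
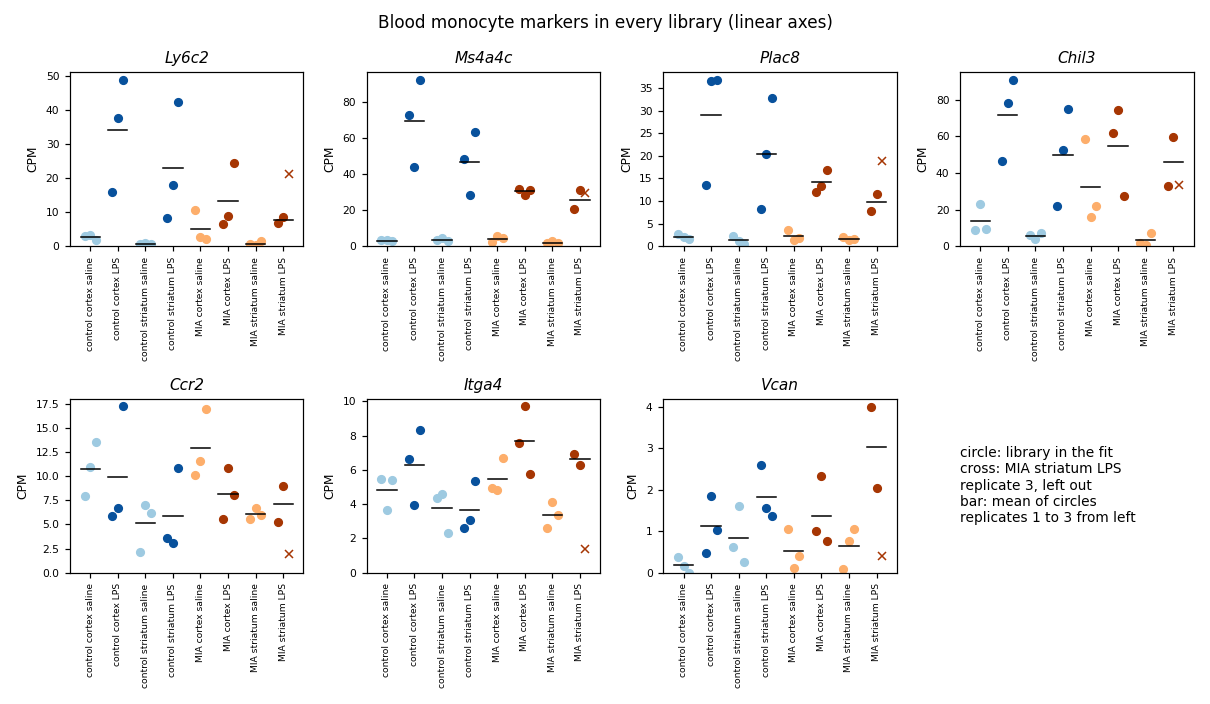
Level of each of the 7 monocyte markers in CPM (linear vertical axes) in every library, by group along the horizontal axis, with circles for libraries in the fit, a cross for the left-out MIA striatum LPS replicate 3 and a bar for the mean of the circles. Every LPS library lies above every saline library for Ms4a4c and Plac8, while MIA cortex saline replicate 1 (10.6 CPM Ly6c2, 58.2 CPM Chil3) lies among the LPS libraries.

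Ly6c1, the endothelial neighbour, followed Ly6c2 from library to library in some groups and not in others. In MIA cortex both genes had the same order of libraries. Ly6c1 stood there at 117, 86.2 and 76.3 CPM after saline and at 164, 184 and 358 CPM after LPS. In the control LPS groups replicate 3 was highest for Ly6c2 but not for Ly6c1. Its Ly6c1 level was 120 CPM in cortex and 175 CPM in striatum, where replicate 2 held 357 and 344 CPM. Ly6c2 made up 4.56, 5.55 and 3.05% of the Ly6c1 plus Ly6c2 level in control cortex saline and 7.41, 9.54 and 28.9% in control cortex LPS. In control striatum the share was 0.356, 0.482 and 0.588% after saline and 4.93, 4.97 and 19.5% after LPS. In MIA cortex it was 8.31, 2.96 and 2.66% after saline and 3.82, 4.62 and 6.37% after LPS, with saline replicate 1 above every LPS library. In MIA striatum it was 0.896, 0.268 and 0.873% after saline and 2.47 and 4.47% after LPS. How the shared reads were divided was not tested. Ly6c1 itself rose in control cortex (log2 fold change 1.96 ± 0.44, adjusted p = 0.00302) and in MIA cortex (1.34 ± 0.43, adjusted p = 0.0462), and its values were 0.46 ± 0.42 in control striatum and 1.03 ± 0.46 in MIA striatum (adjusted p = 0.493 and 0.197). The MIA cortex call for Ly6c1 was lost in 13 of 23 fits that each left out 1 library. The sum of both genes had a log2 fold change of 2.10 ± 0.42 in control cortex (adjusted p = 0.0012) and 1.34 ± 0.41 in MIA cortex (adjusted p = 0.0368). For that sum the striatal values were 0.60 ± 0.40 in control (adjusted p = 0.337) and 1.07 ± 0.45 in MIA (adjusted p = 0.155), which did not pass. Ly6i, a further Ly6 gene with no divided reads here, rose in all 4 LPS comparisons, from 0.101 to 0.711 CPM after saline to 11.3 to 18.4 CPM after LPS in control cortex. Its MIA striatum call was lost without LPS replicate 2 or saline replicate 2 of that group (adjusted p up to 0.107).

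**Figure D2:**
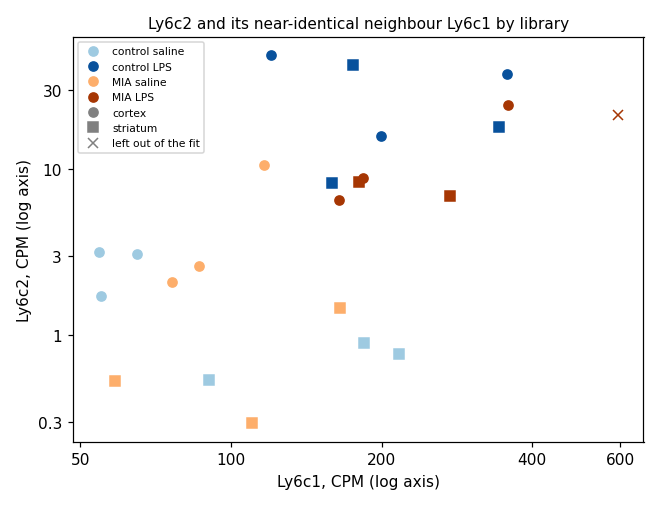
Ly6c2 (vertical) against Ly6c1 (horizontal), both in CPM on log axes, with 1 point per library, circles for cortex, squares for striatum and a cross for the left-out library. At a like Ly6c1 level, control striatum saline replicate 2 held 0.894 CPM of Ly6c2 and control striatum LPS replicate 3 held 42.5 CPM.

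Ms4a4c (ENSMUSG00000024675.19) encodes a 4-pass membrane protein of the Ms4a family that monocytes carry. It rose in all 4 LPS comparisons. In control cortex it went from 3.34, 3.25 and 2.76 CPM after saline to 73.1, 44.2 and 92.1 CPM after LPS (log2 fold change 4.48 ± 0.39, adjusted p = 9.71e-08). In control striatum it went from 3.38, 4.30 and 2.81 CPM to 48.3, 28.2 and 63.6 CPM (3.74 ± 0.37, adjusted p = 6.07e-07). The LPS libraries were all above the saline libraries, and replicate 3 was again the highest in both regions.

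In MIA cortex Ms4a4c stood at 2.06, 5.79 and 4.43 CPM after saline and at 31.9, 28.2 and 31.3 CPM after LPS (log2 fold change 2.89 ± 0.36, adjusted p = 1.55e-05). In MIA striatum it stood at 1.55, 2.73 and 1.78 CPM and at 20.4 and 31.4 CPM (3.67 ± 0.39, adjusted p = 3.12e-06). The 3 MIA cortex LPS libraries lay close together and all below the 3 control cortex LPS libraries, a comparison tested further on. Of the Ms4a4c windows of 50 bases, 7.73% also occur in Ms4a4b, a lymphocyte gene, and the deposited value was divided in 8 of 23 libraries. Ms4a4b rose in control cortex by 2.26 ± 0.59 and in control striatum by 2.03 ± 0.60 on the log2 scale (adjusted p = 0.00982 and 0.019), and each call was lost without saline replicate 2 of its own group. Its values of 0.72 ± 0.57 in MIA cortex and 1.06 ± 0.64 in MIA striatum did not pass (adjusted p = 0.521 and 0.382). The other Ms4a neighbour that could share reads, Ms4a4d, held at most 9 counts in any library and was not tested.

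Plac8 (ENSMUSG00000029322.12) encodes a small cysteine-rich protein of myeloid cells and shares no window of 50 bases with another gene. In control cortex it rose from 2.76, 1.98 and 1.59 CPM to 13.5, 36.7 and 36.7 CPM (log2 fold change 3.77 ± 0.56, adjusted p = 6.70e-05). In control striatum it rose from 2.27, 1.23 and 0.436 CPM to 8.14, 20.5 and 32.8 CPM (3.99 ± 0.58, adjusted p = 4.27e-05). Replicate 1 was the lowest LPS library in both regions, and neither LPS group overlapped its saline group.

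Plac8 in MIA cortex went from 3.58, 1.27 and 1.92 CPM to 12.1, 13.3 and 17.0 CPM (log2 fold change 2.65 ± 0.54, adjusted p = 0.00212). In MIA striatum it went from 2.04, 1.33 and 1.56 CPM to 7.89 and 11.5 CPM (2.56 ± 0.58, adjusted p = 0.00562), and this call was lost without MIA striatum LPS replicate 2 (adjusted p = 0.0812). All 11 LPS libraries of Plac8 were above all 12 saline libraries, and so were those of Ms4a4c.

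Chil3 (ENSMUSG00000040809.10) encodes the secreted chitinase-like lectin Ym1, made by monocytes and also by maturing neutrophils. It went from 8.95, 22.8 and 9.31 CPM after saline to 46.3, 78.2 and 90.4 CPM after LPS in control cortex (log2 fold change 2.39 ± 0.65, adjusted p = 0.0126). That call was lost without control cortex saline replicate 1 (adjusted p = 0.0648) or replicate 3 (adjusted p = 0.0639). In control striatum it went from 6.28, 3.92 and 7.10 CPM to 21.8, 52.3 and 74.9 CPM (3.10 ± 0.67, adjusted p = 0.00217). No saline library of the controls reached an LPS library of its region.

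In MIA striatum Chil3 stood at 1.99, 0.702 and 7.0 CPM after saline and at 33.1 and 59.3 CPM after LPS (log2 fold change 3.82 ± 0.73, adjusted p = 0.00137). In MIA cortex the saline libraries held 58.2, 16.1 and 22.0 CPM and the LPS libraries 61.9, 74.3 and 27.5 CPM. Saline replicate 1 lay above LPS replicate 3, and the log2 fold change of 0.76 ± 0.62 (95% interval -0.52 to 2.05) did not pass (adjusted p = 0.527). The same 2 libraries were those with the high neutrophil sum and the high interferon sum, and the part of either in this result was not tested. Chil3 shares 16.9% of its windows of 50 bases with Chil4, which held at most 1 count in any library.

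Vcan (ENSMUSG00000021614.16) encodes versican, a large chondroitin sulfate proteoglycan that monocytes and also oligodendrocyte precursors make. It was sparse, with 0 to 101 counts per library. Averaged over the 4 LPS comparisons it was higher after LPS, with a log2 fold change of 1.84 ± 0.49 (adjusted p = 0.00504). It stood at 0.376, 0.152 and 0 CPM in control cortex saline, where a count of 0 allows up to 0.14 CPM (3 counts, counting error only), and at 0.484, 1.85 and 1.04 CPM in control cortex LPS. No single comparison passed in edgeR. The values were 2.62 ± 1.03 (control cortex, adjusted p = 0.0866, and 0.0294 in DESeq2), 1.13 ± 0.93 (control striatum), 1.38 ± 0.95 (MIA cortex) and 2.21 ± 1.01 (MIA striatum). The saline and LPS libraries overlapped in both control striatum and MIA cortex.

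Ccr2 (ENSMUSG00000049103.14), the receptor by which classical monocytes follow CCL2, CCL7 and CCL12, did not pass in any LPS comparison. In control cortex it stood at 7.90, 10.9 and 13.5 CPM after saline and at 5.91, 6.72 and 17.3 CPM after LPS. In control striatum the values were 2.13, 7.02 and 6.20 CPM and 3.56, 3.11 and 10.8 CPM. Replicate 3 was the highest LPS library of both regions, and the groups overlapped in both. In MIA cortex Ccr2 stood at 10.1, 11.5 and 17.0 CPM after saline and at 5.61, 10.8 and 8.08 CPM after LPS, and in MIA striatum at 5.58, 6.65 and 5.97 CPM and at 5.23 and 8.99 CPM. The mean log2 difference over the 4 comparisons was -0.09 ± 0.25 (95% interval -0.62 to 0.44, adjusted p = 0.832). The 4 single values ran from -0.66 ± 0.49 in MIA cortex to 0.23 ± 0.55 in MIA striatum.

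Itga4 (ENSMUSG00000027009.18), the integrin α4 chain, passed in no LPS comparison with edgeR. Across the 12 saline libraries it lay between 2.31 and 6.68 CPM and across the 11 LPS libraries between 2.59 and 9.73 CPM. The mean log2 difference was 0.45 ± 0.18 (95% interval 0.08 to 0.83) and missed the threshold (adjusted p = 0.0539, and 0.0497 in DESeq2). Leaving out 1 library at a time gave 0.36 to 0.52, and 7 of those 23 fits passed. The largest single value, 0.98 ± 0.39 in MIA striatum (adjusted p = 0.128), came from 2.61, 4.10 and 3.34 CPM after saline and 6.94 and 6.27 CPM after LPS, which did not overlap. Itga4 shares 7.32% of its windows with Cerkl, which overlaps it in the genome, and counting on strand is not stated.

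Counted together, 4 of the 7 markers were higher after LPS in control cortex (Ly6c2, Ms4a4c, Plac8 and Chil3), where 10.9% of all 17139 genes were higher. The same 4 genes were higher in control striatum, against 12.7% of all genes, and in MIA striatum, against 6.93%. In MIA cortex 2 of 7 passed, Ms4a4c and Plac8, against 7.05%. In the mean over the 4 comparisons 5 of 7 were higher, with Vcan as the fifth, against 20.7%. None of the 7 was lower in any of these, where 7.25%, 8.15%, 4.85%, 3.31% and 16.9% of all genes were lower in the same order. In MIA striatum 10.2% of all genes changed in either direction. The median log2 fold change of the 7 was 2.62, 3.10, 1.38 and 2.56 in the 4 single comparisons in that order, beside 0.04, -0.02, 0.01 and -0.06 over all genes. The MIA striatum count was 2 without MIA striatum LPS replicate 2. Which CD11b-positive cells, monocytes, microglia or others, carried the rise of these markers was not tested.

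**Figure D3:**
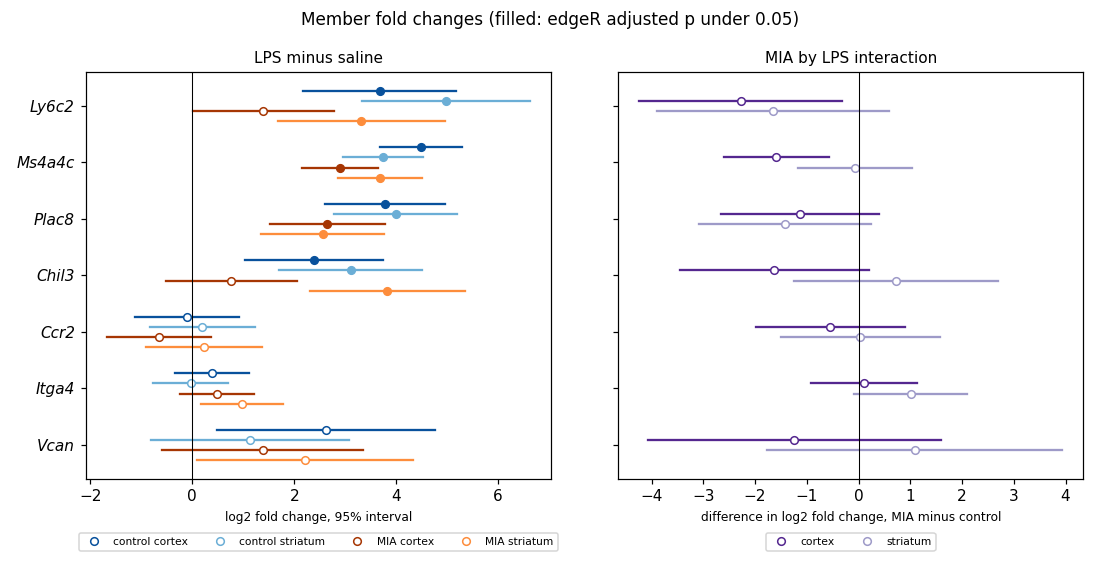
Log2 fold change of each marker after LPS in the 4 prenatal and regional groups (left) and the difference of that fold change between MIA and control offspring in each region (right), with 95% intervals as bars and filled points for an edgeR adjusted p under 0.05. On the left Ccr2 lies between -0.66 and 0.23, Itga4 between -0.03 and 0.98 and Ms4a4c between 2.89 and 4.48, and on the right no point is filled.

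Of 25 further monocyte genes, 21 were higher and 0 lower in the mean over the 4 comparisons, where 20.7% of all genes were higher and 16.9% lower. Their median log2 fold change was 1.35 beside -0.04 over all genes. Singly, 16 were higher in control cortex, 17 in control striatum, 8 in MIA cortex (1 was lower) and 18 in MIA striatum, which became 10 without MIA striatum LPS replicate 2. Over all genes 10.9%, 12.7%, 7.05% and 6.93% were higher in the same order, and 4.85% were lower in MIA cortex. In control cortex saline the 25 genes already summed to 1620 to 1721 CPM, where the 7 markers summed to 31.85 to 45.95 CPM. F13a1 is also in the border macrophage list. The part of microglia and other CD11b-positive cells in the rise of the 25 genes was not tested. Itgal, the integrin αL chain of LFA-1, rose by 3.71 ± 0.19 on the log2 scale in the mean (adjusted p = 6.45e-12). Cd44, the hyaluronan receptor, rose by 2.72 ± 0.19 (adjusted p = 4.34e-10). Of 14 genes of nonclassical (patrolling) monocytes, 7 were higher and 2 lower in the mean, beside 20.7% and 16.9% of all genes. The 2 lower of 14 did not exceed the share over all genes. Among the called genes were Pglyrp1, a peptidoglycan receptor, higher by 2.02 ± 0.23 (adjusted p = 6.00e-07) and Cd36, a scavenger receptor, at -1.34 ± 0.18 (adjusted p = 3.19e-06).

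The ligands that draw CCR2-bearing cells rose in the mean over the 4 LPS comparisons. Ccl12 rose from 43.0 to 48.8 CPM in control cortex saline to 1175 to 1413 CPM in control cortex LPS, and its mean log2 fold change was 3.75 ± 0.15 (adjusted p = 1.17e-13). Ccl2 rose by 1.68 ± 0.14 (adjusted p = 6.82e-09) and Ccl7 by 1.00 ± 0.19 (adjusted p = 0.000238). Ccl7 did not pass in MIA cortex (0.42 ± 0.37, adjusted p = 0.575) or MIA striatum (0.87 ± 0.41, adjusted p = 0.215). Its control cortex call was lost without LPS replicate 1 or any saline library of that group (adjusted p up to 0.163), and its control striatum call without LPS replicate 1 (adjusted p = 0.0617). Among the partners of integrin α4, Itgb7 rose by 1.62 ± 0.15 (adjusted p = 4.30e-08) and the ligand Vcam1 by 0.97 ± 0.14 (adjusted p = 1.27e-05). In MIA cortex neither passed, with 0.53 ± 0.29 for Itgb7 (adjusted p = 0.304) and 0.60 ± 0.28 for Vcam1 (adjusted p = 0.194). The Vcam1 calls in control cortex, control striatum and MIA striatum were lost in 2, 3 and 2 of 23 fits with 1 library left out. Itgb1 had a mean log2 difference of -0.16 ± 0.09 (adjusted p = 0.191). Ackr1, the chemokine-binding receptor of venules, was at 0 to 0.72 CPM in the saline libraries and at 40.5 to 104.5 CPM in the LPS libraries used. Of the 20 recruitment ligands and partners tested, 13 were higher and 1 lower in the mean comparison, beside 20.7% and 16.9% of all genes.

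Whether prenatal history changed these responses was tested as the MIA by LPS interaction, the fold change in MIA offspring minus that in controls. None of the 7 markers passed in cortex, in striatum or in the mean of both regions with edgeR, where 0%, 0% and 0.0175% of all genes passed (in the last, 0.00583% higher and 0.0117% lower). At an unadjusted p under 0.05 the counts were 2, 0 and 3 of 7 markers, beside 4.34%, 7.72% and 9.32% of all genes. DESeq2 called 0 of 7 in each, where it called 1, 37 and 152 of all 17139 genes. In the mean of both regions the differences in log2 fold change were -1.97 ± 0.72 for Ly6c2 (95% interval -3.46 to -0.47, adjusted p = 0.381), -1.28 ± 0.54 for Plac8 (-2.40 to -0.15, adjusted p = 0.461) and -0.83 ± 0.36 for Ms4a4c (-1.57 to -0.09, adjusted p = 0.471). For Chil3 the difference was -0.45 ± 0.65 (-1.80 to 0.89), for Ccr2 -0.26 ± 0.51 (-1.31 to 0.80), for Vcan -0.08 ± 0.86 (-1.88 to 1.72) and for Itga4 0.55 ± 0.36 (-0.20 to 1.31). In cortex alone the Ms4a4c difference was -1.59 ± 0.49 (unadjusted p = 0.00385), which did not pass over all genes.

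Set directly against controls after LPS, MIA offspring had Ms4a4c at 28.2 to 31.9 CPM in cortex where controls had 44.2 to 92.1 CPM. The groups did not overlap, and the log2 difference of -1.20 ± 0.33 did not pass after adjustment (adjusted p = 0.396). In striatum the ranges were 20.4 to 31.4 and 28.2 to 63.6 CPM and overlapped (-0.85 ± 0.38, adjusted p = 0.508). Ly6c2 differed by -1.36 ± 0.65 in cortex (adjusted p = 1) and -1.58 ± 0.76 in striatum (adjusted p = 0.552), with overlap in both regions. Plac8 differed by -1.03 ± 0.50 and -1.08 ± 0.58 (adjusted p = 1 and 0.607), again with overlap. Itga4 went the other way in striatum, with 6.94 and 6.27 CPM in MIA LPS above the 2.59, 3.05 and 5.32 CPM of control LPS. Its log2 difference of 0.85 ± 0.39 did not pass either (adjusted p = 0.522), and in cortex it was 0.29 ± 0.35. Erythrocyte and platelet markers were lower in the same MIA LPS libraries, at a summed 40.2 to 59.4 CPM against 209.9 to 364.7 CPM in control cortex LPS, and 34.4 to 69.8 against 144.9 to 215.7 CPM in striatum. Their median log2 differences were -2.51 and -1.97, with 0 of 8 called in either region, and their part in the marker differences was not tested. With edgeR 0 of 7 markers passed in cortex LPS, cortex saline, striatum saline or striatum LPS, where 0%, 0%, 0% and 0.146% of all genes passed (in the last, 0.0408% higher and 0.105% lower). At an unadjusted p under 0.05 the counts were 2, 0, 1 and 2 of 7, beside 4.88%, 5.37%, 4.91% and 9.08% of all genes. DESeq2 called 0 of 7 in each, where it called 58, 2, 1 and 242 of all 17139 genes in the same order.

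Of the ligands, Ccl12 differed in its response. Its interaction in the mean of both regions was -2.06 ± 0.28 on the log2 scale (adjusted p = 0.00731), with 333 to 823 CPM in MIA cortex LPS against 1175 to 1413 CPM in control cortex LPS. In striatum it stood at 234 and 288 CPM in MIA LPS and at 712 to 1337 CPM in control LPS. The interaction was not called without MIA striatum LPS replicate 1 (adjusted p up to 0.112) or with the excluded library added back. Ccl2 had an interaction of -1.28 ± 0.28 (adjusted p = 0.0823), which passed in DESeq2, without the filter on low counts, without MIA cortex LPS replicate 3 or MIA striatum saline replicate 1, and without both MIA cortex libraries that stood apart. Ccl12 was the only one of the 20 recruitment genes called in that comparison.

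**Figure D4:**
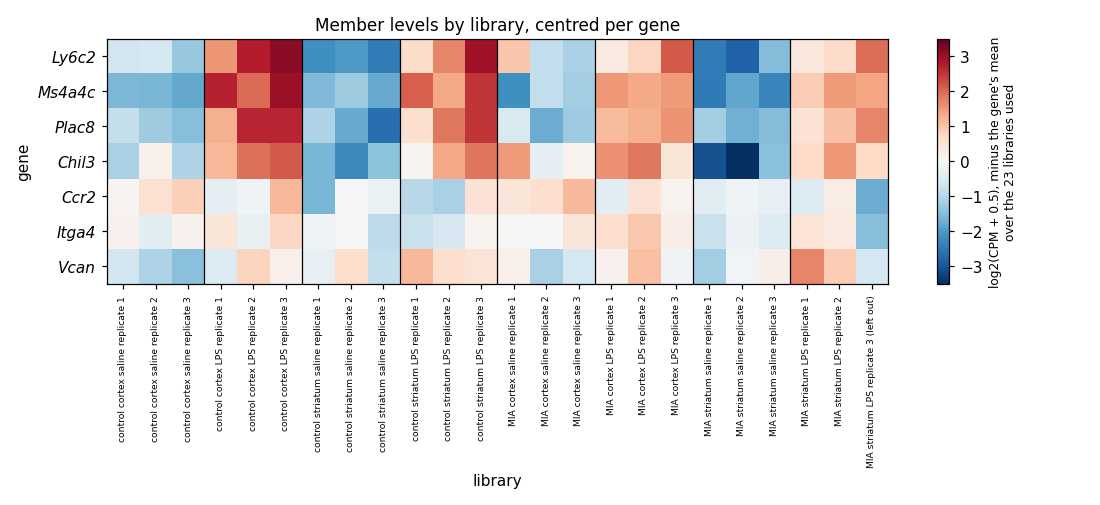
Level of each marker in every library as log2(CPM + 0.5) minus the gene's mean over the 23 libraries used (colour scale), with groups divided by vertical lines and the left-out library last. Control cortex LPS replicate 3 has the highest level of Ly6c2, Ms4a4c, Plac8 and Chil3 (48.8, 92.1, 36.7 and 90.4 CPM), and MIA striatum saline replicate 2 the lowest of Ly6c2 and Chil3 (0.296 and 0.702 CPM).

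Regions differed at rest. In saline libraries, averaged over control and MIA, Ly6c2 was lower in striatum than in cortex by a log2 difference of -2.29 ± 0.52 (adjusted p = 0.0341) and Chil3 by -2.27 ± 0.47 (adjusted p = 0.0204). For both genes the cortex and striatum libraries did not overlap in control or in MIA offspring: Chil3 lay between 8.95 and 22.8 CPM in control cortex saline and between 3.92 and 7.10 CPM in control striatum saline. These were 2 of 7 markers, where 0.385% of all genes were lower in striatum, 0.77% higher and 1.16% either. Ccr2 also had no overlap, with 7.90 to 13.5 CPM against 2.13 to 7.02 CPM in controls and 10.1 to 17.0 CPM against 5.58 to 6.65 CPM in MIA offspring, but its log2 difference of -1.08 ± 0.35 did not pass (adjusted p = 0.158).

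The regional calls rested on single libraries. Ly6c2 was not called in 9 of 23 fits that each left out 1 library, nor without both MIA cortex libraries that stood apart. Chil3 was not called without control cortex saline replicate 2, control striatum saline replicate 2 or MIA cortex saline replicate 1 (adjusted p up to 0.0695). For Ly6c2 these were the fits without control cortex saline replicates 1 or 2, any control striatum saline library, MIA cortex saline replicates 1 or 2, or MIA striatum saline replicates 1 or 2 (adjusted p up to 0.123). In the same saline comparison 11 of 19 neutrophil markers, 9 of 25 further monocyte genes and 7 of 12 border macrophage markers were lower in striatum, and none of these was higher. Their part in the Ly6c2 and Chil3 differences was not tested. After LPS 0 of 7 markers differed between regions with edgeR (0.0467% of all genes did). At an unadjusted p under 0.05 the count was 0 of 7, beside 6.17% of all genes. DESeq2 called 0 of 7 and 126 of all 17139 genes. The difference of the LPS response between regions passed for 0 of 7 with edgeR, where 0% of all genes passed. DESeq2 called 0 of 7 there and 11 of all 17139 genes. With edgeR 2 of 7 had an unadjusted p under 0.05, beside 5.09% of all genes: Chil3 with 1.89 ± 0.64 (adjusted p = 0.958) and Ly6c2 with 1.61 ± 0.70 (adjusted p = 0.958).

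The genes whose pattern over the 23 libraries was nearest to each marker were found by the root mean square difference of centred log2 CPM, over 14510 candidates. For Chil3 they were the neutrophil genes S100a8 (0.48), Retnlg (0.513) and S100a9 (0.556). For Ly6c2 they were Ifitm6 (0.631), Hp (0.745) and S100a8 (0.754). For Ms4a4c they were Cyp4f18 (0.503), Spp1 (0.504) and Pilrb2 (0.529), and for Plac8 they were Trim30b (0.559), Ifi27l2a (0.582) and Slfn2 (0.619). Ccr2 was nearest to Rnf145 (0.471), Xylt2 (0.503) and Rps6ka2 (0.506), Itga4 to Gpd1 (0.342), Spata2 (0.357) and Polg (0.359), and Vcan to Cenph (0.80), Inf2 (0.802) and Tnfsfm13 (0.856). These distances describe the libraries, which share group and depth, and a gene that varies little has near neighbours of any kind: the SD of centred log2 CPM was 2.09 for Ly6c2 and 0.546 for Itga4.

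Markers of other CD11b-bearing cells were measured in the same libraries. Of 19 neutrophil markers, 9 were higher in control cortex after LPS (10.9% of all genes) and 13 in control striatum (12.7%). In MIA cortex 3 were higher (7.05%) and 2 lower (4.85%), and in MIA striatum 10 were higher (6.93%). Their summed level ran from 417 to 684 CPM in control cortex saline to 1357 to 1670 CPM in control cortex LPS, and from 307 to 351 CPM in control striatum saline to 842 to 1277 CPM in control striatum LPS. In MIA cortex the saline sums of 575 to 1097 CPM overlapped the LPS sums of 924 to 1318 CPM, and in MIA striatum 300.1 to 374.8 CPM stood against 1024 and 1253 CPM. Ly6g, the defining surface marker of neutrophils, was at 0 in 2 of 3 libraries of control cortex saline, of control striatum saline and of MIA striatum saline. It stood at 2.82, 0.821 and 0.586 CPM in MIA cortex saline, and lay between 1.06 and 2.36 CPM in all LPS libraries used. Trem1, an activating receptor of neutrophils and monocytes, rose by 5.76 ± 0.27 on the log2 scale in the mean (adjusted p = 1.18e-12) and Lcn2, lipocalin 2, by 6.00 ± 0.35 (adjusted p = 3.16e-11). The part of neutrophils in the rise of Chil3 and Ly6c2 was not tested.

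**Figure D5:**
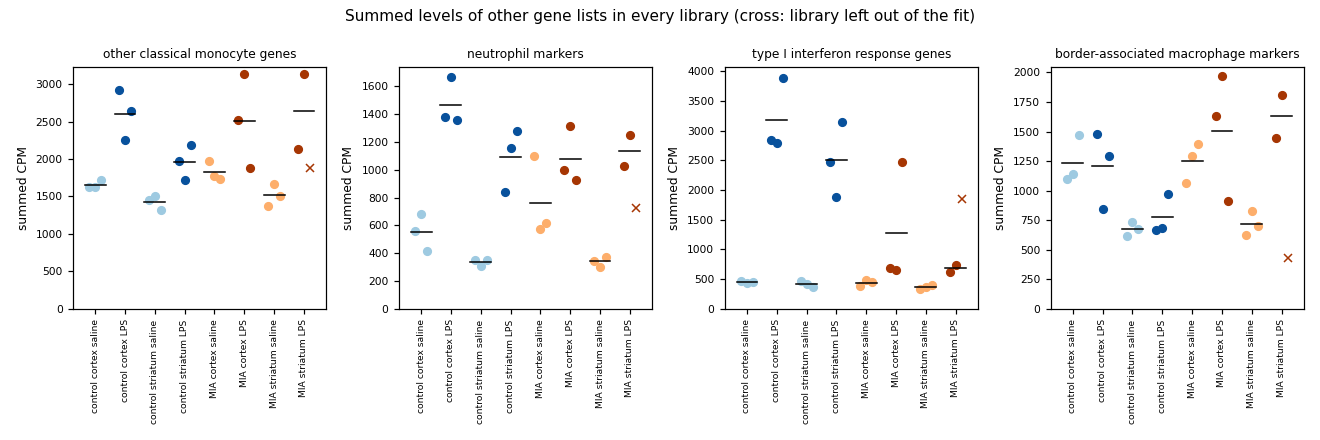
Summed level in CPM (vertical axes from 0) of 25 further monocyte genes, 19 neutrophil markers, 22 type I interferon response genes and 12 border macrophage markers in every library, with bars for group means and a cross for the left-out library. The interferon sum of MIA cortex LPS replicate 3 (2478 CPM) lies apart from replicates 1 and 2 (692 and 653 CPM), and the neutrophil sum of MIA cortex saline replicate 1 (1097 CPM) lies within the LPS range.

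Of 22 type I interferon response genes, 22 and 20 were higher after LPS in the cortex and striatum of controls, and 13 and 5 in the cortex and striatum of MIA offspring. Without MIA cortex LPS replicate 3 or MIA cortex saline replicate 1 the MIA cortex count was 5 or 7. The MIA striatum count was 1 to 3 without any 1 of that group's 5 libraries, LPS or saline, and 10 with the excluded library added back. Of 12 border macrophage markers, 1, 2, 1 and 7 rose in the same order, the last becoming 1 without MIA striatum LPS replicate 2. Over all genes 10.9%, 12.7%, 7.05% and 6.93% were higher in those comparisons, and 7.25%, 8.15%, 4.85% and 3.31% lower. F13a1, a coagulation factor of monocytes and border macrophages, had a mean log2 fold change of 1.21 ± 0.20 (adjusted p = 6.78e-05). Homeostatic microglia markers were lower for 11, 9, 9 and 7 of 12 genes. Of the 22 interferon response genes, 0 were called in the MIA by LPS interaction in cortex, in striatum or in the mean of both. The median differences in log2 fold change were -1.33, -1.69 and -1.73. Set directly against controls after LPS, 0 of 22 were called in cortex and 3 were lower in striatum, beside 0% and 0.105% of all genes. Unlike counts of called genes in control and MIA offspring are therefore not a test of a difference. Of the markers' own families, 6 of 7 Ly6 neighbours, 6 of 9 Ms4a genes, 3 of 4 chitinase genes, 0 of 2 lecticans and 4 of 12 leukocyte integrins were higher in the mean comparison, and 2 integrins were lower. In the mean comparison, 4 of 11 dendritic cell markers, 4 of 12 lymphocyte markers, 4 of 15 endothelial markers, 1 of 11 oligodendrocyte precursor markers and 6 of 8 erythrocyte and platelet markers were lower, while 1, 3, 2, 0 and 1 were higher. Over all genes 16.9% were lower and 20.7% higher in the mean comparison. Leaving out 1 library gave 1 to 4 lower dendritic cell markers (1 without MIA striatum saline replicate 2, and 2 without control cortex saline replicate 2, MIA cortex saline replicate 1 or MIA striatum LPS replicate 2). It gave 1 to 3 lower oligodendrocyte precursor markers (3 without MIA cortex LPS replicate 3, and 2 without MIA striatum LPS replicate 1). Of the erythrocyte and platelet markers, 1 and 1 were lower in the cortex and striatum of controls (medians 0.12 and 0.18) and 5 and 5 in those of MIA offspring (medians -3.27 and -2.60). The MIA striatum count was 3 or lower in 16 of 23 fits with 1 library left out, and 1 without MIA striatum LPS replicate 2 or saline replicate 3. A further 6 lymphocyte markers were too low to be tested.

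The promoters of the markers were read from RefSeq (GRCm38.p6, 250 bases before to 50 after the start) because 4 of the markers rose together. They were searched on both strands for an interferon response element core (GAAANNGAA), a gamma-activated site (TTCNNNGAA), a PU.1-type site (GAGGAAGT) and a C/EBP site (TTGCGCAA), which occur in 8.56%, 8.3%, 3.2% and 0.183% of 32851 such windows. Chil3 and Ccr2 held the first of these and Ly6c2 the PU.1-type letters, and Chil3 also the gamma-activated site letters. Shown are 100 bases of each, 5′ to 3′ on the gene's strand, with the match in capitals, which is the reverse complement of the core in Chil3 and Ccr2.
Chil3, chr3:106167569-106167668, minus strand: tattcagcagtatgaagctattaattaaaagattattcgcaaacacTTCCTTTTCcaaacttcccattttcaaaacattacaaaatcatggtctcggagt
Ccr2, chr9:124102051-124102150, plus strand: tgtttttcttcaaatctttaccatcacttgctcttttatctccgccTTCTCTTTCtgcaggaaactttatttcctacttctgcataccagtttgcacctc
Ly6c2, chr15:75112026-75112125, minus strand: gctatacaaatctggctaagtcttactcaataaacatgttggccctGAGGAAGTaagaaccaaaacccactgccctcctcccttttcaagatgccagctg
Plac8, Ms4a4c, Vcan and Itga4 held none of the 4 sets of letters in this window. A match is a description of the reference letters, and no binding was measured here.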

How the data were processed

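Per the labels, RNA of CD11b-selected cells was sequenced as 24 libraries, and the authors deposited an expected count for every gene in each. Per the submitters' processing notes the authors used STAR, RSEM and DESeq2. Versions, roles and the genome build are not given in the sources used here. RSEM divides reads that fit several genes, which bears on Ly6c2, Ccr2, Ms4a4c and Itga4. Of all values, 6.92% were not whole, and expected counts were rounded before testing. Of 55487 identifiers, 55141 had a symbol.

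Groups came from the labels. Genes were kept by filterByExpr (minimum count 10, minimum total 15), libraries were scaled by TMM, and 1 quasi-likelihood model with a term per group (15 residual degrees of freedom) was fitted to 23 libraries in edgeR 4.0.16 (R 4.3.3). The 15 comparisons came from this fit. Two-sided p-values were adjusted by Benjamini and Hochberg over 17139 genes within each comparison and called under 0.05. SE values follow from the F statistic. CPM are rounded counts scaled by the TMM-adjusted size of the kept genes. For the left-out library the TMM factor came from a scaling over all 24 libraries. Likeness used log2 CPM with a prior count of 2. The fit was tested on simulated data. Alternatives were median-ratio factors, DESeq2 1.42.0, no filter, the excluded library added back, near-identical genes summed, and each library left out. Further ones were a block on replicate number and, for the regional comparisons only, a block on same-numbered cortex and striatum libraries. Leaving out 2 MIA cortex libraries together was chosen after seeing the data.

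The 7 markers and all gene lists were chosen with earlier results of these data known. Genes named are the 7 markers, their 3 nearest genes by pattern, Ly6c1, Ly6i, Chil4, Ms4a4b and Ms4a4d, 7 recruitment genes (Ccl2, Ccl7, Ccl12, Vcam1, Itgb1, Itgb7 and Cd44), and up to 3 called genes per list with the smallest adjusted p in the mean LPS comparison. Some items that this rule names are not reported here. P2ry12, Ly6g and Cerkl were named for checks, and Ms4a4c in the cortex interaction after its value was seen.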

Additional observations from a re-analysis of the deposited data

Results flagged for a closer look

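MIA striatum LPS replicate 3, which is titled as excluded and entered no comparison, held 4 of the 7 markers above every MIA striatum saline library. Ly6c2 stood at 21.2 CPM, above the 0.296 to 1.46 CPM of the saline libraries and above the 6.94 and 8.44 CPM of the LPS libraries used. Plac8 at 18.8 CPM was likewise above the saline libraries (1.33 to 2.04 CPM) and the LPS libraries used (7.89 and 11.5 CPM). Ly6c1, the near-identical neighbour of Ly6c2, stood at 592 CPM in this library, the highest of the 24 libraries. Ly6c2 made up 3.46% of the Ly6c1 plus Ly6c2 level there, against 2.47 and 4.47% in the LPS libraries used. Ms4a4c at 29.4 CPM and Chil3 at 33.2 CPM were above the saline libraries and within the range of the LPS libraries used. Ccr2 at 1.90 CPM and Itga4 at 1.39 CPM were below every saline and LPS library of MIA striatum, and Vcan at 0.402 CPM was within the saline range. Its 19 neutrophil markers summed to 722.6 CPM and its 12 border macrophage markers to 430 CPM, the lowest border macrophage sum of the 24 libraries. With 1 library there is no test.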

How the results depend on the processing

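The 7 markers are few, control and MIA groups hold 2 or 3 libraries each, and Vcan rests on 0 to 101 counts. Over all alternatives, 1189 marker fold changes kept their direction and side of the threshold, 7 lost their call, 11 gained one and 26 changed sign, none of the last from a called value. The number of markers called stayed within 1.5 times in 427 cases and moved in 11. Without single libraries the MIA striatum LPS count ran from 2 to 4 and the regional saline count from 0 to 2, and the latter was 1 without both MIA cortex libraries that stood apart. Sign changes with the excluded library added back: Ccr2 in MIA striatum, -0.174. With both MIA cortex libraries out, the mean interaction became 0.0696 for Chil3 and 0.543 for Vcan. Leaving out 1 library gave ranges through 0 for Ccr2 (-0.770 to 0.153 in control cortex, -0.620 to 0.491 in control striatum, -0.270 to 0.545 in MIA striatum, and -0.485 to 0.151 for the mean interaction), for Itga4 in control striatum (-0.408 to 0.166), and for the mean interaction of Chil3 (-0.744 to 0.170) and Vcan (-0.685 to 0.360). The cause was not tested. Whether replicate numbers pair the libraries is not stated: same-numbered cortex and striatum libraries of a group had deviations correlated at -0.2 to 0.314 (median 0.177, 11 pairs), against a median of -0.123 for different numbers (22 pairs). The negative pair was MIA LPS replicate 1 (-0.2), and the labels do not settle the pairing, so the fit without pairing was reported. If same-numbered cortex and striatum libraries share an animal, comparisons averaged over both regions treat linked libraries as independent. Their p-values could then be too small, among them that of Vcan in the mean LPS comparison. A block on replicate number over all groups kept the LPS counts at 4 in control cortex and 4 in control striatum. It also kept 2 in MIA cortex, 4 in MIA striatum and 5 in the mean, and the Ccl2 interaction passed. A block on same-numbered cortex and striatum libraries was run for the regional comparisons only, so the LPS counts and interactions were not tested with it. With a replicate block the regional saline count rose from 2 to 3, with Ccr2 as the added gene. For the MIA effects and interactions the count stayed at 0 in every alternative run.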
